A study of Mus musculus with 12 samples.

Results

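The 31 genes described here encode the enzymes, transporters and regulatory subunits that take glucose to lactate and that build and break down glycogen in heart muscle. They were taken by name from a fixed list of symbols. All 31 were among the 33641 gene symbols of the table, and all 31 passed the filter on low values (at least 1 TPM, a length-corrected share of the library, in at least 3 libraries), as did 13158 genes in all. Myocardial RNA was sequenced from 12 male wild-type C57BL/6 mice, 3 in each of 4 groups: sham surgery with vehicle, sham surgery with prednisone, myocardial infarction (MI) with vehicle, and MI with prednisone. Prednisone, a glucocorticoid that is converted to its active form in the body, was injected intraperitoneally at 1 mg/kg once a week at lights-on for 6 weeks, starting 2 weeks after surgery, and hearts were collected 24 hours after the final dose. The treatment text gives an age of about 10 weeks and the sample labels one of about 16 weeks. No group was a genetic model, each library came from 1 mouse as labelled, and neither the part of the heart that was taken nor its distance from the infarct is given in the sources used here.

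Glycolysis splits glucose into pyruvate in the cytosol, and lactate dehydrogenase interconverts pyruvate and lactate. The adult heart draws most of its energy from fatty acids and lactate, and keeps glycolysis and a glycogen store for changes in load or oxygen. Many steps exist as tissue-specific forms encoded by separate genes: muscle forms (Pfkm, Pgam2, Eno3, Pygm) that predominate in the contractile cells, and broadly expressed forms (Pfkp, Pfkl, Pgam1, Eno1, Pygb). Glucocorticoids act through a nuclear receptor and are known for raising glycogen stores in several tissues.

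Among sham hearts given vehicle, the levels of the enzymes ran from 1418, 1495 and 1540 TPM for Gapdh down to 1.03, 1.93 and 0.956 TPM for Slc16a3, the lactate exporter of glycolytic cells. TPM is a share of each library after division by transcript length, so levels of different genes can be compared. Changes are given as differences of log2(TPM + 1), which understate the change of genes near 1 TPM, with the standard error (SE) of a limma model fitted to all 13158 genes in all 12 libraries. A gene was called at a Benjamini-Hochberg adjusted p under 0.05 over all genes. With 3 mice a group, these p-values set a difference of group means against the spread between mice. That spread was pooled over all groups and drawn toward a trend over all genes.

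The libraries differed in ways that bear on every value below. Summed cardiomyocyte markers (8 genes) ran from 37050 to 39051 TPM in sham hearts on vehicle, 37894 to 43817 in sham hearts on prednisone, 26361 to 33071 in MI hearts on vehicle and 37929 to 41238 in MI hearts on prednisone, and 7 skeletal muscle markers summed to at most 27.4 TPM in any library. Summed fibroblast markers ran from 385 to 521, 438 to 522, 925 to 1251 and 337 to 585 TPM in the same order, with 7 of 7 higher in MI than in sham under vehicle and 6 of 7 lower with prednisone than with vehicle after MI. Macrophage and monocyte markers ran from 272 to 389, 313 to 417, 610 to 1336 and 305 to 556 TPM (7 of 8 higher, then 6 of 8 lower); no marker of these lists was at 0 in a whole group. Adipocyte markers (4 genes) varied within groups, from 4.22 to 435 TPM over all libraries. Summed atrial markers ran from 845 to 2487, 1982 to 2686, 2802 to 4106 and 4335 to 6173 TPM. Of these 4 genes, 1 was called higher and 0 lower in MI than in sham under vehicle, with a median change of -0.78, so the rising sum was not shared by the whole list. With prednisone after MI, 3 of the 4 were called higher. MI vehicle mouse 3 stood apart, with 14307 genes at 1 TPM or more against 11690 to 12772 in the other 11 libraries and with lymphocyte markers at 118 TPM against at most 8.38. In bulk tissue, fewer cells of a type and less RNA per cell cannot be told apart, and the part of cell makeup in the changes below was not tested.

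Short transcripts at the 3′ and 5′ ends of genes also had shifted values in 1 group. Short annotated transcripts, under 50% of the length of their gene's longest coding transcript and sharing only its 3′ end (946 transcripts over all genes), had median changes against the sham vehicle mean of 1.15, 1.36 and 0.72 on the log2 scale in the 3 MI prednisone libraries and of -0.11 to 0.34 in the 6 libraries of the MI vehicle and sham prednisone groups. The 3122 short transcripts that share only the 5′ end stood at -0.51, -0.43 and -0.35 in MI prednisone and at 0.09 to 0.55 in those 6 libraries. Every contrast with the MI prednisone group therefore compares libraries that also differ in the TPM of short transcripts at the ends of genes. Where a short 3′ transcript is annotated, it weighs more per read in the gene sum, since TPM divides by its short length. The reads themselves were not examined, and the cause of this difference was not tested. With prednisone after MI, the sign of Hk2, Pygm and Gpi1 turned when each transcript was weighted by its reads, as given below.

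**Figure D1:**
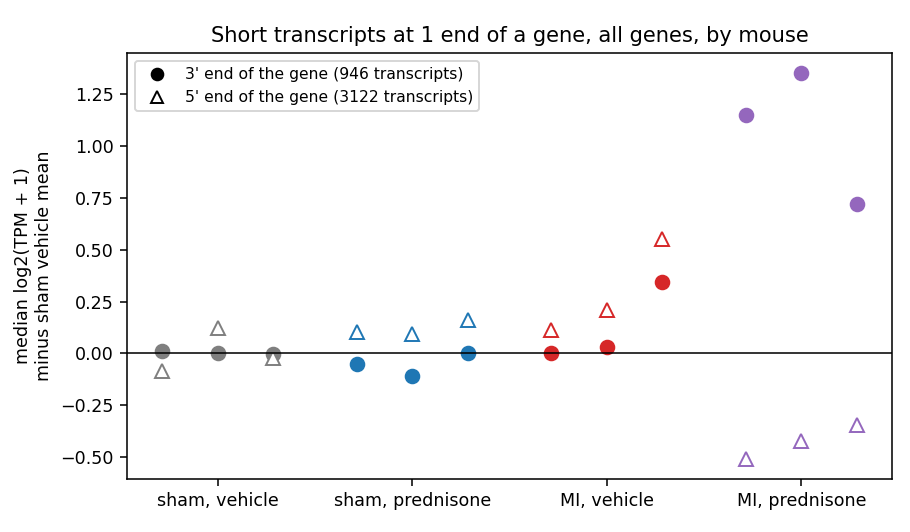
Each point is 1 library and gives the median, over all genes, of the log2(TPM + 1) of short transcripts at the 3′ or the 5′ end of a gene minus the sham vehicle mean, by group. The 3 MI prednisone libraries sit at 0.72 to 1.36 for the 3′ end and at -0.51 to -0.35 for the 5′ end, and no other library shows that split.

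The DNA just upstream of the genes is shown because hypoxia-inducible factors and E-box factors, known regulators of glycolytic genes, bind sites with the core ACGTG. RefSeq (GRCm38.p6) start sites matched all 31 genes, with 48 starts. The letters ACGTG, read on both strands, were in the 250 bases before 18 of the 48 member starts (37.5%) and before 16.6% of the 32851 starts of all genes; counted by gene, 14 of 31 members and 18.5% of all genes held it. CACGTG, which overlaps ACGTG, was before 5 member starts (10.4%, against 6.0%), and AGAACA, a half-site of the glucocorticoid receptor, before 11 (22.9%, against 16.1%). The 250-base stretches of 4 starts, each ending at the start site, are printed 5′ to 3′ on the gene's strand, with ACGTG on either strand in capitals: the first of the Ldha starts (chr7:46845554-46845803, plus strand), Slc16a3 (chr11:120948817-120949066, plus), Pgam1 (chr19:41911621-41911870, plus) and its muscle counterpart Pgam2 (chr11:5803797-5804046, minus).
Ldha: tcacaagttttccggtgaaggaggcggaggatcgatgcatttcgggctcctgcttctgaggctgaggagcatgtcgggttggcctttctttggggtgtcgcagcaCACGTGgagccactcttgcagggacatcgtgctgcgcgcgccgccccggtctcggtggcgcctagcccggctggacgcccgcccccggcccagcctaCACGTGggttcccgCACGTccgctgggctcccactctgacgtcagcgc
Slc16a3: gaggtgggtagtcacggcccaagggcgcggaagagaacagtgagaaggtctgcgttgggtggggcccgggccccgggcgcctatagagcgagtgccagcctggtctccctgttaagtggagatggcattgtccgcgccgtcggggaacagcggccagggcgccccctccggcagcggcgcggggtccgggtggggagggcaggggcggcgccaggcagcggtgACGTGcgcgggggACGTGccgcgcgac
Pgam1: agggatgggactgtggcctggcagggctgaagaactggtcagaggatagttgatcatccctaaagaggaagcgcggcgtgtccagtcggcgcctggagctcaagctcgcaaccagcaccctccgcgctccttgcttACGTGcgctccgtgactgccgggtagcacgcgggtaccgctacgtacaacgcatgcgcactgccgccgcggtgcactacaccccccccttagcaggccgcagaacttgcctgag
Pgam2: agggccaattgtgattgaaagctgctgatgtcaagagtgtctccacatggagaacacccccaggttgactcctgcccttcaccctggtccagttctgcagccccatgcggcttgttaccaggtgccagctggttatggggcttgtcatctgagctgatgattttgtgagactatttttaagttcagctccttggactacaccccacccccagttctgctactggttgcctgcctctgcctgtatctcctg
In MI against sham under vehicle, members with the core were found among the called and the uncalled, and a relation was not tested. Slc16a3 and Pgam1, called higher, held it, whereas Pfkp and Hk1, also called higher, held it before none of their starts. Eno3 and Phkg1, called lower, did not hold it. Ldha, Hk2, Pfkm, Pygm and Pgk1, not called in that contrast, held it before at least 1 start. The member starts and the starts of all genes were not matched for base composition, and ACGTG itself holds the letters CG. A match is a description of letters, and no binding was measured here.

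**Figure D2:**
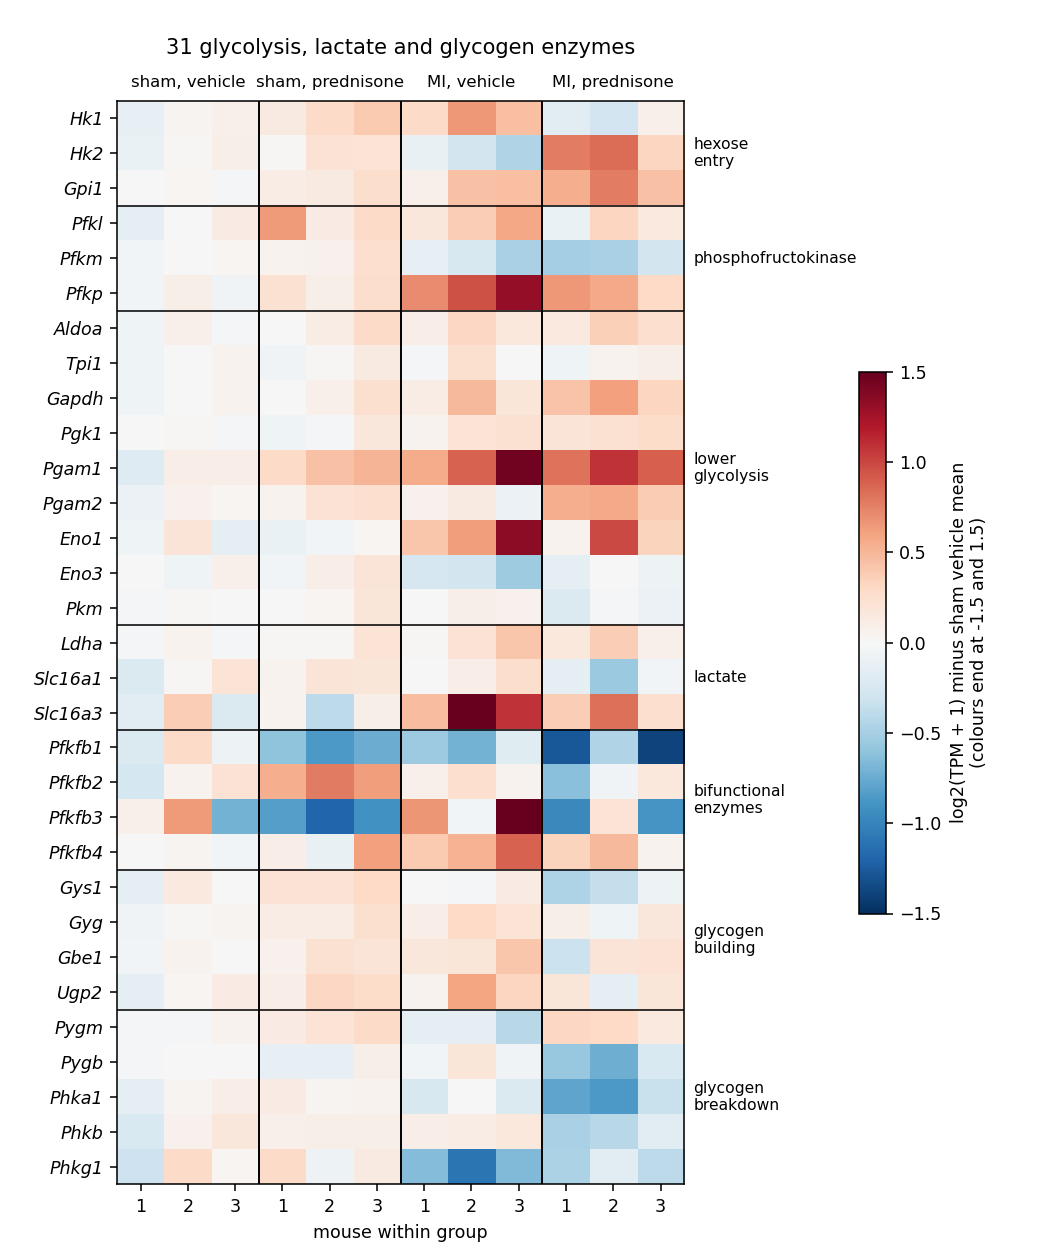
Colour gives the log2(TPM + 1) of each enzyme in each mouse minus the enzyme's mean in sham vehicle, with the genes in rows by role and the 12 mice in columns by group. Red rows in MI vehicle include Pfkp, Pgam1, Eno1 and Slc16a3, and Hk2 turns from blue in MI vehicle to red in MI prednisone.

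After MI under vehicle, 4 of the 31 enzymes rose and 2 fell: the broadly expressed forms Pfkp and Pgam1, the lactate exporter Slc16a3 and hexokinase 1 (Hk1) were higher, and the muscle enolase Eno3 and the muscle phosphorylase kinase subunit Phkg1 were lower. Over all genes 16.0% were called, 15.1% higher and 0.904% lower, so the share of members called (6 of 31) was near the background. The median change of the members was 0.16 against 0.39 over all genes tested, and 7 of 31 lay above that all-gene median. When the libraries were rescaled by the median ratio over genes, which sets the all-gene shift near 0, the split was 2 higher (Pfkp 0.59 and Pgam1 0.56) and 3 lower (Phkg1 -1.17, Pfkfb1 -0.84 and Eno3 -0.77), with 7.81% of all genes called (4.11% higher and 3.69% lower). Leaving out 1 library gave 1 (without sham vehicle mouse 3) to 12 (without MI vehicle mouse 1) called members, and 10 of the 12 omissions moved the count by over 1.5 times. Pfkp, Pgam1 and Phkg1 were called in 21, 20 and 20 of 23 alternative settings.

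After MI under prednisone, 3 enzymes were higher than in sham prednisone hearts (Hk2, Gpi1 and Pgam2) and 6 were lower (Pfkfb2, Phka1, Pfkm, Gys1, Pygb and Phkb). The background was 16.8%, with 2.73% higher and 14.1% lower, and the medians were -0.09 for the members and -0.06 for all genes. With median-ratio rescaling the split was 5 higher (Pgam1, Hk2, Eno1, Gpi1 and Pfkp) and 3 lower (Pfkfb2, Phka1 and Gys1), with a background of 26.5% (12.2% higher and 14.3% lower). The count ran from 2 (without MI prednisone mouse 1) to 12 (without MI vehicle mouse 3) with 1 library left out, and 8 of the 12 omissions moved the count by over 1.5 times.

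Prednisone against vehicle after MI gave 3 higher enzymes (Hk2, Pygm and Pgam2) and 6 lower ones (Pfkfb3, Hk1, Pygb, Phka1, Pfkp and Phkb). Here 37.4% of all genes were called, 2.5% higher and 34.9% lower, and the medians were -0.23 for the members and -0.41 for all genes, with 23 of 31 members above the latter. Median-ratio rescaling changed the split to 11 higher and 0 lower, with 29.0% of all genes called (13.9% higher and 15.1% lower): Hk2 1.35, Pygm 0.92, Pgam2 0.90, Phkg1 0.84, Eno3 0.71, Gpi1 0.70, Gapdh 0.64, Pgk1 0.51, Aldoa 0.50, Ldha 0.42 and Pgam1 0.40. The 6 lower enzymes kept a negative sign on the rescaled values, from -1.06 (Pfkfb3) to -0.06 (Phkb), and none of them was called there. A further scale, read share, multiplies each TPM by transcript length so that a short transcript counts for no more than its reads; it was added after the data were seen, and gave 2 higher (Pgam2 0.47 and Eno3 0.30) and 6 lower with a background of 39.9%. The count was 6 to 11 when any 1 library was left out.

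In sham hearts prednisone changed none of the 31 enzymes by limma (0 at an adjusted p under 0.05, 2 at an unadjusted p under 0.05), and 0.114% of all genes were called. The members nearest to a call were Pfkfb2 (log2 change 0.65, SE 0.192, limma adjusted p = 0.941), Pfkfb1 (-0.74, SE 0.245, limma adjusted p = 1), Pgam1 (0.41, SE 0.191, limma adjusted p = 1) and Pfkl (0.35, SE 0.164, limma adjusted p = 1). Median-ratio rescaling and read share gave 0 called members as well.

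**Figure D3:**
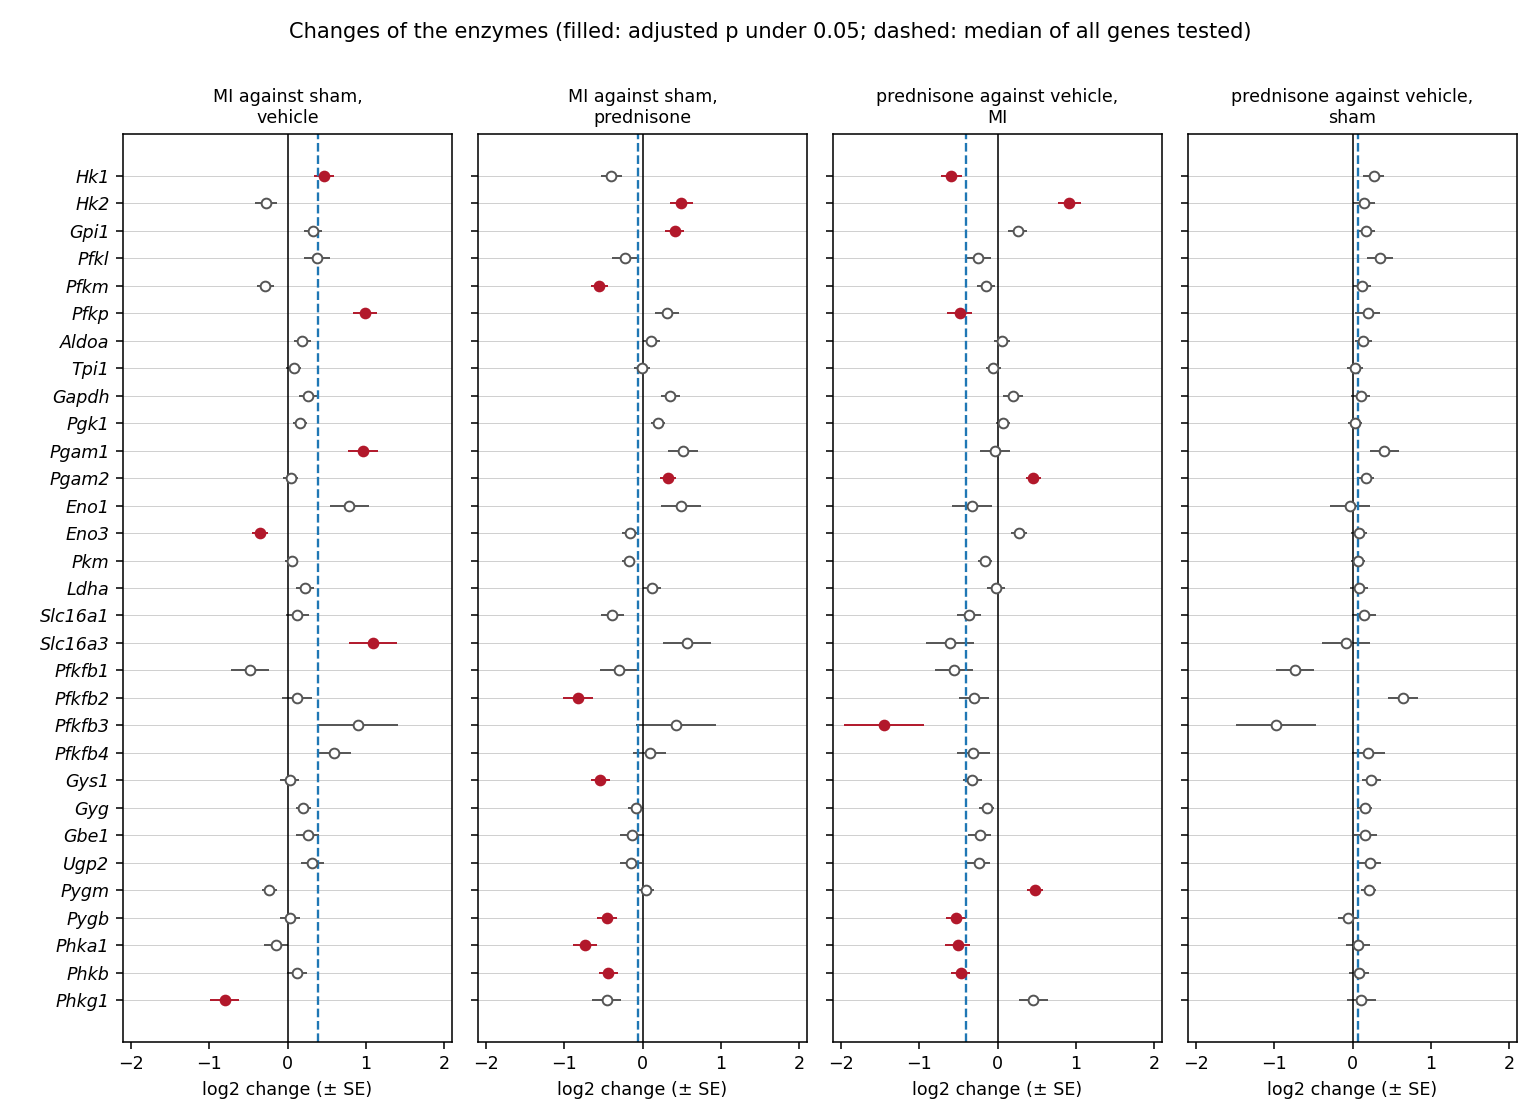
Each point is the log2 change of 1 enzyme with its SE, filled where limma's adjusted p is under 0.05, and the dashed line is the median of all genes tested. The panels show MI against sham under vehicle and under prednisone, and prednisone against vehicle after MI and in sham hearts. In the prednisone contrast after MI most points lie right of the dashed line at -0.41 while only Hk2, Pygm and Pgam2 are filled to the right of 0.

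Hexokinases trap glucose in the cell as glucose 6-phosphate; Hk1 is the constitutive form and Hk2 the insulin-responsive form of muscle and heart. Hk1 (chr10:62268855-62379908, minus strand, GRCm38) stood at 32.3, 36.4 and 37.3 TPM in sham hearts on vehicle and 38.9, 43.1 and 46.6 in those on prednisone. After MI the values were 43.2, 56.1 and 48.8 TPM with vehicle and 31.2, 28.7 and 37.4 with prednisone. All 3 MI vehicle mice lay above all 3 sham vehicle mice and all 3 MI prednisone mice. Under vehicle, Hk1 rose by 0.47 on the log2 scale after MI (SE 0.132, limma adjusted p = 0.0404), and it fell with prednisone after MI (-0.59, SE 0.132, limma adjusted p = 0.00664). Neither call held with median-ratio rescaling (0.06 and -0.16), and without MI vehicle mouse 3 the first missed the threshold (0.47, limma adjusted p = 0.0743).

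Hk2 (chr6:82725025-82774454, minus strand) gave 39.3, 42.8 and 44.9 TPM in sham hearts on vehicle and 42.7, 49.2 and 49.0 in those on prednisone. The MI mice had 39.2, 34.7 and 30.8 TPM under vehicle and 72.7, 76.1 and 53.3 under prednisone. The MI prednisone mice lay above all others. As a gene sum it was higher with prednisone than with vehicle after MI (0.92, SE 0.144, limma adjusted p = 0.00153) and higher after MI than after sham surgery under prednisone (0.50, SE 0.144, limma adjusted p = 0.0377). Of the annotated transcripts behind the sum, 2 went opposite ways. Hk2-201, the full coding transcript of 5513 bases, stood at 38.1, 34.1 and 30.6 TPM in MI vehicle and at 22.6, 20.2 and 31.4 in MI prednisone, a fall of 0.47 on the log2 scale (SE 0.156, limma adjusted p = 0.0379). Hk2-202, a processed transcript of 594 bases at the 3′ end (chr6:82725062-82726309, minus), was listed at 0 in all 9 libraries of the other groups and at 50.0, 55.9 and 21.9 TPM in MI prednisone. By read share the Hk2 gene value was -0.22 (limma adjusted p = 0.152) for prednisone against vehicle after MI and -0.65, called lower, for MI against sham under prednisone. The direction of the Hk2 change depends on how a 3′-end transcript is weighted.

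Gpi1, which converts glucose 6-phosphate to fructose 6-phosphate, stood at 213, 218 and 210.0 TPM in sham hearts on vehicle and 231, 235 and 257 in those on prednisone. In MI hearts it was at 226, 290.2 and 293 TPM on vehicle and 312, 363 and 291 on prednisone. It was higher after MI than after sham surgery under prednisone (0.41, SE 0.119, limma adjusted p = 0.0371), a call made in 10 of 23 alternative settings and not by read share (0.14, limma adjusted p = 0.406). With prednisone after MI its gene value was 0.26 on the TPM scale, 0.70 with median-ratio rescaling and -0.009 by read share. Its transcripts also went opposite ways: against MI vehicle, Gpi1-207 of 933 bases was higher with prednisone by 1.04 (limma adjusted p = 0.0011) and the full-length Gpi1-201 fell by 0.43 (limma adjusted p = 0.0130).

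Phosphofructokinase commits sugar to glycolysis, and its muscle (Pfkm), liver (Pfkl) and platelet (Pfkp) subunits assemble in mixed tetramers. The muscle subunit was the most abundant of the 3 in every library, at 268, 278 and 283 TPM in sham hearts on vehicle and 287, 289 and 329 in those on prednisone. MI hearts gave 253, 234 and 197 TPM on vehicle and 193, 196 and 227 on prednisone. Pfkm fell after MI under prednisone (-0.55, SE 0.112, limma adjusted p = 0.00770), with no overlap between the groups. Pfkp stood at 13.4, 14.7 and 13.2 TPM in sham hearts on vehicle and 16.3, 14.7 and 16.7 in those on prednisone. The MI mice had 23.0, 27.6 and 35.9 TPM under vehicle and 22.1, 20.9 and 17.2 under prednisone. It rose after MI under vehicle (0.99, SE 0.155, limma adjusted p = 0.00693). With prednisone after MI it was lower (-0.49, SE 0.155, limma adjusted p = 0.0308), a call lost without MI vehicle mouse 3 (-0.32, limma adjusted p = 0.0765) and with median-ratio rescaling (-0.06). Pfkl ranged from 25.1 to 43.7 TPM over the 12 mice and was called in no contrast on the TPM scale.

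The lower part of glycolysis runs from aldolase to pyruvate kinase. Of its members, Eno1, described below, was called in none of the 5 contrasts on the TPM scale. The same held for 5 others: Aldoa (1125 to 1495 TPM over all mice), Gapdh (1418 to 2281), Tpi1 (331 to 412), Pgk1 (144 to 183) and Pkm (360.4 to 476). These 5 carry out aldol cleavage, the oxidation step, triose isomerisation and the 2 steps that make ATP. Their changes ranged from -0.23 (Pkm, difference between the prednisone effects) to 0.36 (Gapdh, MI against sham under prednisone). Gapdh is often taken as a reference gene, and its per-mouse values were 1607, 2072 and 1688 TPM in MI vehicle and 1999, 2281 and 1856 in MI prednisone. Reads of Gapdh, Pgam1, Ldha and Eno1 can be shared with processed copies of these genes, so their levels carry that uncertainty; the Eno1 copy Eno1b stood at 0 to 0.43 TPM.

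Phosphoglycerate mutase showed a change in each of its forms, in different comparisons. Pgam1, the broadly expressed form (chr19:41911923-41918660, plus strand), gave 28.4, 34.8 and 34.8 TPM in sham hearts on vehicle and 39.7, 44.3 and 46.6 in those on prednisone. After MI the values were 48.4, 61.1 and 90.2 TPM with vehicle and 58.1, 69.8 and 61.1 with prednisone. Its sham and MI mice did not overlap under either treatment, and it rose after MI under vehicle (0.97, SE 0.191, limma adjusted p = 0.0140); under prednisone the difference was 0.52 (SE 0.191, limma adjusted p = 0.0868). Pgam2, the muscle form (chr11:5801640-5803733, minus strand), gave 446, 498 and 484 TPM in sham hearts on vehicle and 492, 553 and 564 in those on prednisone. MI hearts gave 497, 523 and 448 TPM on vehicle and 692, 706 and 618 on prednisone. The 3 MI prednisone mice lay above the other 9. Under prednisone Pgam2 was higher after MI than after sham surgery (0.33, SE 0.099, limma adjusted p = 0.0450), a call made in 7 of 23 alternative settings (changes of 0.06 to 0.44). It rose with prednisone after MI (0.46, SE 0.099, limma adjusted p = 0.00576), and the latter change had the same direction and passed the test on the TPM scale, with median-ratio rescaling (0.90) and by read share (0.47).

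Enolase makes phosphoenolpyruvate; Eno3 is the muscle form and Eno1 the ubiquitous one. Eno3 stood at 674, 651 and 714 TPM in sham hearts on vehicle and 657, 726 and 779 in those on prednisone. In MI hearts it was at 572, 560.0 and 468 TPM on vehicle and 611, 676 and 642 on prednisone. It fell after MI under vehicle (-0.35, SE 0.104, limma adjusted p = 0.0438), with no overlap between those groups, and without MI vehicle mouse 3 the change was -0.26 (limma adjusted p = 0.114). Eno1 gave 79.4, 95.1 and 75.4 TPM in sham hearts on vehicle and 77.1, 80.8 and 84.9 in those on prednisone. After MI the values were 111, 128 and 211 TPM with vehicle and 86.0, 166 and 105 with prednisone. Its 3 MI vehicle mice lay above the sham mice, with mouse 3 the highest, and the difference missed the threshold (0.79, SE 0.255, limma adjusted p = 0.0550).

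Lactate dehydrogenase A favours the making of lactate from pyruvate, and the monocarboxylate transporters Slc16a1 and Slc16a3 move lactate across the plasma membrane. Ldha gave 300.2, 320.4 and 303 TPM in vehicle-treated sham, 312, 311 and 354 in prednisone-treated sham, 311, 359 and 412 in vehicle-treated MI and 344, 397 and 323 in prednisone-treated MI hearts. On the TPM scale Ldha was called in no contrast. Slc16a3 stood at 1.03, 1.93 and 0.956 TPM in sham hearts on vehicle and 1.35, 0.727 and 1.41 in those on prednisone. In MI hearts it was at 2.12, 6.42 and 3.82 TPM on vehicle and 1.94, 3.02 and 1.69 on prednisone. It rose after MI under vehicle (1.09, SE 0.306, limma adjusted p = 0.0393), at levels under 7 TPM and in 7 of 22 alternative settings; without MI vehicle mouse 3 the change was 1.09 (limma adjusted p = 0.0797). Slc16a1, the form that heart muscle uses to take lactate up, stood at 34.8, 41.2 and 47.1 TPM in sham hearts and 41.0, 43.9 and 49.1 in MI hearts on vehicle. On prednisone it stood at 42.3, 46.9 and 46.2 TPM in sham hearts and 37.0, 27.5 and 39.7 in MI hearts. Its prednisone groups did not overlap, and it was called in no contrast on the TPM scale.

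The bifunctional enzymes Pfkfb1 to Pfkfb4 set the level of fructose 2,6-bisphosphate, the allosteric activator of phosphofructokinase. The cardiac form Pfkfb2 stood at 11.4, 14.4 and 16.2 TPM in sham hearts on vehicle and 20.7, 24.4 and 21.9 in those on prednisone. The MI mice had 14.7, 16.6 and 14.4 TPM under vehicle and 8.59, 13.3 and 15.6 under prednisone. The sham prednisone mice lay above all other 9. Pfkfb2 was lower after MI than after sham surgery under prednisone (-0.82, SE 0.192, limma adjusted p = 0.0146). Pfkfb3, the inducible form, was lower with prednisone after MI (-1.45, SE 0.511, limma adjusted p = 0.0444), from 10.3, 5.94 and 29.4 TPM in MI vehicle to 2.66, 7.25 and 2.88 in MI prednisone. Summed adipocyte markers in the same mice were 174, 4.22 and 435 TPM in MI vehicle and 56.0, 193 and 63.0 in MI prednisone, so within each group the mouse with the most Pfkfb3 had the highest sum, and their part in the result was not tested. The Pfkfb3 groups overlapped, and without MI vehicle mouse 3 the change was -0.86 (limma adjusted p = 0.146). Pfkfb3 in sham hearts was at 6.52, 10.2 and 3.38 TPM with vehicle and 3.05, 2.13 and 2.81 with prednisone, 2 groups that did not overlap and whose difference was not called (-0.98, SE 0.511, limma adjusted p = 1). Pfkfb1, a low form here, stood at 7.86, 11.5 and 8.72 TPM in sham vehicle and 5.73, 4.63 and 5.15 in sham prednisone, again without overlap and without a call, and at 2.92 to 8.05 TPM in the 6 MI mice. Pfkfb4 (1.71 to 4.38 TPM) was called in no contrast on the TPM scale.

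Glycogen is built by glycogenin (Gyg), UDP-glucose pyrophosphorylase (Ugp2), glycogen synthase (Gys1) and the branching enzyme (Gbe1). Of these 4 only Gys1 was called on the TPM scale. It stood at 25.2, 30.95 and 27.7 TPM in sham hearts on vehicle and 32.5, 32.5 and 34.5 in those on prednisone. The MI mice had 27.7, 27.4 and 30.4 TPM under vehicle and 20.0, 21.5 and 26.4 under prednisone. Gys1 was lower after MI than after sham surgery under prednisone (-0.54, SE 0.120, limma adjusted p = 0.0120), a call also made with median-ratio rescaling (-0.43) and by read share (-0.53). Against MI vehicle its value was -0.33, which was not called.

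Glycogen is broken down by phosphorylase, in muscle (Pygm) and brain (Pygb) forms, which phosphorylase kinase switches on; Phka1, Phkb and Phkg1 encode its regulatory alpha and beta subunits and its catalytic gamma subunit. Pygm gave 297, 298 and 315 TPM in sham hearts on vehicle and 329, 350.0 and 371 in those on prednisone. MI hearts gave 276, 275 and 227 TPM on vehicle and 376, 372 and 336 on prednisone. With prednisone after MI it was higher (0.48, SE 0.10, limma adjusted p = 0.00476), with no overlap, and by read share it was not (-0.06, limma adjusted p = 0.687). Its full coding transcript Pygm-201 fell from 132, 132 and 105 to 69.3, 56.0 and 108 TPM (-0.70, limma adjusted p = 0.0203). The retained-intron transcript Pygm-203 of 532 bases (chr19:6397495-6398291, plus strand) rose from 4.72, 3.68 and 8.26 to 88.0, 89.5 and 37.0 TPM (3.42, limma adjusted p = 0.00078). Each of these Pygm transcripts is listed under another identifier with equal values, and the gene value sums both.

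Pygb gave 186, 189 and 189 TPM in sham hearts on vehicle and 173, 173 and 199.5 in those on prednisone. MI hearts gave 182, 214 and 182 TPM on vehicle and 126, 113 and 161 on prednisone. The 3 MI prednisone mice lay below all others. It was lower with prednisone than with vehicle after MI (-0.54, SE 0.128, limma adjusted p = 0.00875) and lower after MI than after sham surgery under prednisone (-0.45, SE 0.128, limma adjusted p = 0.0342). Median-ratio rescaling gave -0.10 and -0.34, neither called.

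The 3 phosphorylase kinase subunits did not move alike. Phkg1 stood at 9.92, 15.5 and 12.9 TPM in vehicle-treated sham, 15.6, 11.9 and 13.9 in prednisone-treated sham, 7.69, 5.36 and 7.56 in vehicle-treated MI and 8.76, 11.1 and 9.33 in prednisone-treated MI hearts, and fell after MI under vehicle (-0.80, SE 0.184, limma adjusted p = 0.0212). Phka1 stood at 6.02, 7.01 and 7.29 TPM in sham hearts on vehicle and 7.42, 6.96 and 7.06 in those on prednisone. After MI the values were 5.55, 6.75 and 5.70 TPM with vehicle and 3.47, 3.27 and 5.15 with prednisone. Phka1 was lower after MI under prednisone (-0.73, SE 0.155, limma adjusted p = 0.00913) and with prednisone after MI (-0.51, SE 0.155, limma adjusted p = 0.0250). Phkb, at 16.2 to 21.7 TPM in the 6 sham mice, 20.6, 20.9 and 21.6 in MI vehicle and 13.5, 14.2 and 17.2 in MI prednisone, was lower in both of these contrasts (-0.44, limma adjusted p = 0.0372, and -0.47, limma adjusted p = 0.0142). With median-ratio rescaling only the first Phka1 call (-0.64) and the Phkg1 call (-1.17) were made.

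Whether the effect of prednisone differed between MI and sham hearts was tested as an interaction. 1 enzyme was called higher (Hk2 0.77, SE 0.204, limma adjusted p = 0.0245) and 5 lower: Pfkfb2 (-0.95, SE 0.272, limma adjusted p = 0.0326), Hk1 (-0.86, SE 0.187, limma adjusted p = 0.0133), Pfkp (-0.68, SE 0.220, limma adjusted p = 0.0485), Gys1 (-0.57, SE 0.170, limma adjusted p = 0.0382) and Phkb (-0.56, SE 0.178, limma adjusted p = 0.0460). Over all genes 21.3% were called, 0.54% higher and 20.7% lower, with medians of -0.30 for the members and -0.48 for all genes. Hk1 and Gys1 showed the difference in every mouse, with all 3 prednisone values above the vehicle values in sham hearts and all 3 below them after MI. With median-ratio rescaling 2 were called higher (Hk2 1.30 and Gpi1 0.62) and 0 lower, with 10.6% of all genes called (5.26% higher and 5.33% lower); the 5 lower enzymes were then at -0.45 (Pfkfb2) to -0.05 (Gys1 and Phkb) and none was called. By read share 0 were called higher and 6 lower, with medians of -0.37 for the members and -0.48 for all genes. The share of all genes called on that scale is not given here, so this count cannot be set against a background. Hk2 was at -0.37 by read share. Between 1 and 8 members were called for this difference with 1 library left out, with 9 of the 12 omissions moving the count by over 1.5 times.

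Isoenzyme ratios within a library change little under a common rescaling, and were computed for 9 pairs as the difference of log2(TPM + 1). Surgery and prednisone effects were tested with exact two-sided permutation tests within strata of the other factor (400 arrangements, smallest possible p 0.005), adjusted over 18 tests. Ratios passed for surgery in 7 of 9 pairs. In 6 of them the difference was positive in both strata for a broadly expressed or lactate-handling form over its partner. These were Pfkp over Pfkm 1.07 (exact permutation test, adjusted p = 0.015), Slc16a3 over Slc16a1 0.96 (exact, adjusted p = 0.015), and Eno1 over Eno3 0.90 (exact, adjusted p = 0.015), with smaller values for Pgam1 over Pgam2 0.56 (exact, adjusted p = 0.015), Pfkl over Pfkm 0.49 (exact, adjusted p = 0.0386) and Ldha over Ldhb 0.32 (exact, adjusted p = 0.015). The Ldha over Ldhb difference was 0.55 under vehicle and 0.08 under prednisone. Ldhb, the heart form of lactate dehydrogenase, was not among the 31 genes; it stood at 896, 906 and 956 TPM in sham hearts on vehicle and 923, 949 and 1054 in those on prednisone. After MI the values were 791, 731 and 668 TPM with vehicle and 948, 1111 and 950.2 with prednisone. Under vehicle the shifts came with the higher fibroblast and macrophage markers given above. Under prednisone the fibroblast marker sums of sham and MI hearts overlapped (438 to 522 and 337 to 585 TPM). The macrophage and monocyte sums under prednisone were 366, 313 and 417 TPM in sham and 556, 547 and 305 TPM in MI hearts. MI mice 1 and 2 thus lay above all sham mice and MI mouse 3 below them. In that stratum the differences of these 6 pairs ranged from 0.08 (Ldha over Ldhb) and 0.20 (Pgam1 over Pgam2) to 0.87 (Pfkp over Pfkm) and 0.95 (Slc16a3 over Slc16a1). The part of cell makeup in them was not tested. For prednisone 1 of 9 ratios passed: Pygb over Pygm fell by 0.64 (exact permutation test, adjusted p = 0.015; -0.26 in sham and -1.02 in MI hearts), and by read share by 0.41 (exact, adjusted p = 0.0114). Leaving out 1 library ended the surgery call in 7 of 12 omissions for Pfkl over Pfkm (0.39 without MI vehicle mouse 3) and in 3 of 12, the sham vehicle mice, for Pgam1 over Pgam2 and for Ldha over Ldhb.

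**Figure D4:**
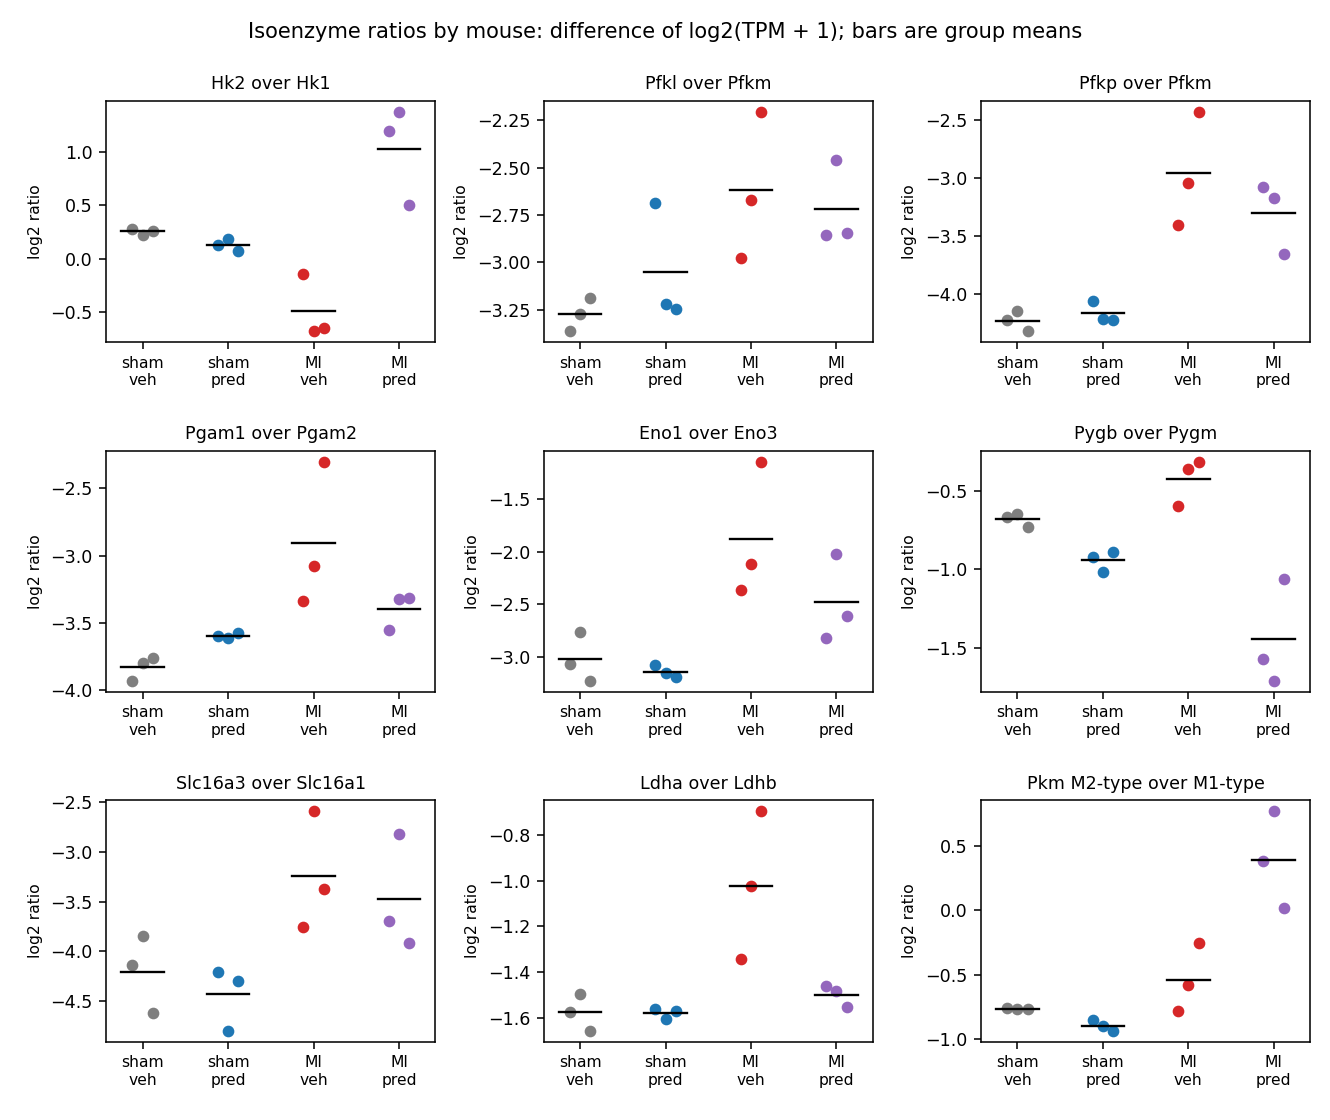
Each point is 1 mouse and each bar a group mean of the log2 ratio of 2 forms of an enzyme. Pfkp over Pfkm is at -4.32 to -4.06 in the 6 sham mice and at -3.65 to -2.43 in the 6 MI mice, and Pygb over Pygm is lowest in the 3 MI prednisone mice (-1.71 to -1.06).

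The seventh ratio to pass for surgery was a splice ratio. Pkm encodes both muscle pyruvate kinases by a choice between mutually exclusive exons; the M1 form is constitutively active and the M2 form, common in proliferating and non-muscle cells, is regulated. The exons are printed because they define the M1 and M2 types; the annotated transcripts also differ in their starts, ends and lengths. They have 167 bases each, at chr9:59675029-59675195 (M1) and chr9:59675568-59675734 (M2), plus strand, GRCm38, coding sequence in both. They carry the same base at 103 positions and different bases, in capitals, at 64 (61.7% identity).
M1 exon: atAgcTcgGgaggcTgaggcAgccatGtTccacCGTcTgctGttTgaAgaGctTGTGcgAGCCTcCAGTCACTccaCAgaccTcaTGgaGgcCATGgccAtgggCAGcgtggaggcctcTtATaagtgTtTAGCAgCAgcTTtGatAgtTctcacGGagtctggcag
M2 exon: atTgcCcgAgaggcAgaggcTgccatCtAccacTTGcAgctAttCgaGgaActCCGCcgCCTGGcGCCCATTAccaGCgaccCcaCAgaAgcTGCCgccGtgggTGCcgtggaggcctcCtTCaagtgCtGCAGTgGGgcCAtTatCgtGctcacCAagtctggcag
Each type held 1 transcript, Pkm-202 for M1 and Pkm-201 for M2. The M2-type transcript made up 37.1%, 37.0% and 36.9% of M1-type plus M2-type TPM in sham hearts on vehicle and 35.5%, 34.9% and 34.3% in those on prednisone. In MI hearts it was at 36.8%, 40.0% and 45.6% TPM on vehicle and 56.6%, 63.1% and 50.3% on prednisone. All 3 MI prednisone mice lay above the other 9, and MI vehicle mouse 1 lay among the sham mice. The log2 ratio differed with surgery by 0.76 (exact permutation test, adjusted p = 0.045), with 0.23 under vehicle and 1.28 under prednisone; the call was lost in 7 of 12 omissions of 1 library (0.68 without MI vehicle mouse 3 and 0.66 without MI prednisone mouse 2). Pkm-202, the M1-type transcript of 2041 bases, fell by 0.61 with prednisone after MI (limma adjusted p = 0.00265), and Pkm-201, the M2-type transcript of 2432 bases, differed by 0.32 (limma adjusted p = 0.0698). The annotated end of Pkm-201 (position 59679375) lies beyond that of Pkm-202 (59679189). Short 3′-end transcripts over all genes also had a higher median in the MI prednisone libraries. The part of that difference in the M2 share was not tested.

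Counted by transcript, 114 of the 257 member rows passed the filter. MI against sham under vehicle gave 3 higher and 1 lower (2.84% of all 27769 transcripts were called). The counts were 18 and 23 for MI against sham under prednisone (22.3%) and 20 and 28 for prednisone after MI (33.0%). In sham hearts prednisone gave 0 and 0 by limma (0.054%), and the difference between prednisone effects gave 12 and 23 (18.7%). In the prednisone contrast after MI, 12 genes had transcripts called in both directions. The share of all genes with calls in both directions was not computed. The 5 short 3′-end transcripts of members had 3 called higher, 0 lower and a median change of 3.42, and the 14 short 5′-end ones had 0 higher, 5 lower and a median of -0.82; under vehicle MI against sham called none of these 19. Over all genes the medians for prednisone after MI went the same ways, at 0.85 for 946 short 3′-end transcripts and -0.66 for 3122 short 5′-end ones, so the split was not particular to these enzymes. The shares of these short transcripts called over all genes were not computed.

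Gapdh shows the split in the most abundant member. Its coding transcript Gapdh-203 of 1420 bases stood at 1445, 1640 and 1251 TPM in MI vehicle and 751, 887 and 1217 in MI prednisone (-0.62, limma adjusted p = 0.0155). The retained-intron transcript Gapdh-206 of 565 bases (chr6:125161853-125162527, minus strand) stood at 14.3, 23.8 and 14.2 against 426, 494 and 138 TPM (4.11, limma adjusted p = 0.000195). Pfkm split between coding transcripts of like length: Pfkm-201 of 2879 bases went from 249, 230 and 187 to 80.5, 87.8 and 172 TPM (-1.04, limma adjusted p = 0.00717). Pfkm-202 of 2816 bases, which starts further upstream, rose to 113, 108 and 55.9 TPM (3.75, limma adjusted p = 0.0015). Phkb-201, the full transcript of 5351 bases, was lower by limma (-1.19, adjusted p = 0.000866), as were the 5′-end Phkb-206 of 630 bases (-2.45, adjusted p = 0.000173), Eno1-205 (-1.39, adjusted p = 0.000453) and Aldoa-210 (-2.29, adjusted p = 0.000302). In each of Hk2, Pygm, Gapdh and Pfkm the transcript with the larger MI vehicle level was lower, and another was higher, in MI prednisone hearts.

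**Figure D5:**
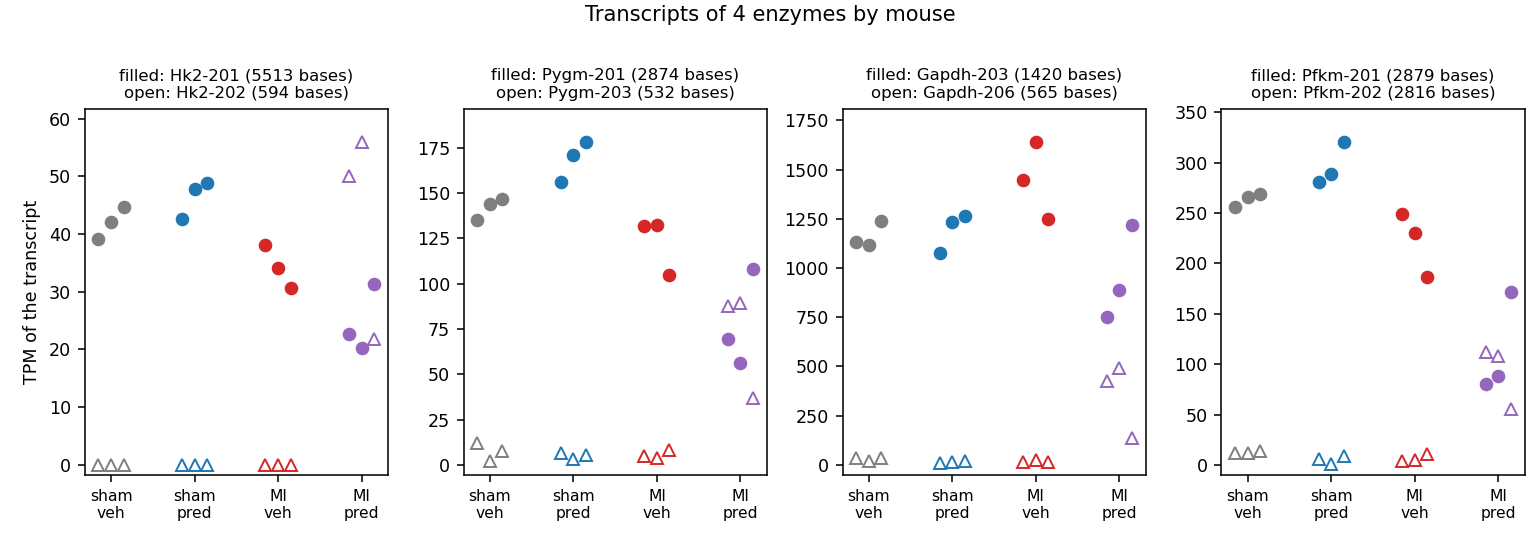
TPM of the main transcript (filled) and of another transcript (open) of 4 enzymes in each mouse, by group. The open points are higher in the 3 MI prednisone mice than in any other mouse, and the lowest filled points of each enzyme are those of MI prednisone mice 1 and 2.

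Of 50 other genes of glucose, lactate and glycogen metabolism, 42 passed the filter. Under vehicle, MI against sham called 6 higher and 3 lower (background 16.0%). The basal glucose transporter Slc2a1 (0.56, limma adjusted p = 0.0411), the hypoxia factor Hif1a (0.73, limma adjusted p = 0.0438), the glycogen-binding protein Stbd1 (0.98, limma adjusted p = 0.0147), Pgm1 (0.78) and Ppp1r3c (0.57) were among those higher. The muscle fructose bisphosphatase Fbp2 (-0.75, limma adjusted p = 0.00731) and Ldhb (-0.34, limma adjusted p = 0.0471) were among those lower. Under prednisone MI against sham called 0 higher and 12 lower (background 16.8%, with 2.73% higher and 14.1% lower). Among the falls were those of the glycogen-targeting phosphatase subunit Ppp1r3a (-1.31, limma adjusted p = 0.00531) and glycogen synthase kinase Gsk3b (-1.30, limma adjusted p = 0.00206), and the list included the insulin-responsive glucose transporter Slc2a4 (-0.61, limma adjusted p = 0.00625). It also held Mdh1 (-0.95), Gpd1l (-0.63), Epm2a (-0.595), Ldhd (-0.50), Got1 (-0.50), Gaa (-0.36) and Pgm2 (-0.36). Prednisone after MI called 3 higher (Ldhb 0.46 and Fbp2 0.38 among them) and 8 lower, against 2.5% and 34.9% of all genes, among them Gsk3b (-1.39, limma adjusted p = 0.000964) and Hif1a (-1.38, limma adjusted p = 0.0015), followed by Ppp1r3a (-0.91), Gpd1l (-0.685), Mdh1 (-0.56), Epm2a (-0.50) and Gaa (-0.46). Prednisone in sham hearts called 0 by limma, with 5 at an unadjusted p under 0.05. The prednisone effects differed between MI and sham hearts for 7 of the 42, 1 higher and 6 lower, against 21.3% of all genes (0.54% higher and 20.7% lower), so the share was not above the background. Fbp2 was higher (0.56), and among the others Gsk3b (-1.655), Hif1a (-1.37), Gpd1l (-0.91), Mdh1 (-0.75) and Gaa (-0.62) were lower. With median-ratio rescaling the splits of higher and lower calls among the 42 were 1 and 5 for MI under vehicle, 3 and 7 for MI under prednisone, 8 and 2 for prednisone after MI and 1 and 1 for the difference.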

How the data were processed

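RNA of 12 hearts was sequenced as stranded poly-A libraries, per the labels' protocols. The authors deposited 1 table of TPM values for 105129 transcripts (each library sums to 1000000), so read depth is unknown and no counting interval is given. The submitters' processing notes name Trimmomatic, HISAT2, kallisto and mm10, without versions or roles. The labels name no batches, and 3 of 3 mice per group were used in every comparison. The members and the lists of other pathway genes and markers were chosen with earlier results of these data known. Values of some of the other pathway genes are not reported here.

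Transcripts were summed by symbol, filtered at 1 TPM in 3 libraries and tested as log2(TPM + 1) (pseudocount 1) with limma 3.58.1 in R 4.3.3, with 4 group means, a mean-variance trend and Benjamini-Hochberg adjustment over all genes; the fit was tested on simulated data. The same fit was run on 27769 transcripts. Ratios were tested with exact permutation tests in Python 3.11.15 (scipy 1.17.1). TPM in every mouse is given for called members and a few others fixed by name, and changes with SE for called members or, where a contrast called fewer than 4, for the 4 with the smallest p. Transcript ends and lengths came from GENCODE M21 (GRCm38), which held 94.7% of the transcript identifiers, and promoters from RefSeq.

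Alternatives were median-ratio rescaling, other filters, a pseudocount of 0.1, a replicate block, a loess length correction, fits to 2 groups, removal of mitochondrial rows, the most abundant transcript alone, and each library left out; read share was added after the data were seen.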

Additional observations from a re-analysis of the deposited data

Results flagged for a closer look

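For 6 enzymes the effect of prednisone after MI differed from its effect in sham hearts, by the interaction term of the model over all genes. The differences in log2 change (MI minus sham) were 0.77 for Hk2, -0.95 for Pfkfb2, -0.86 for Hk1, -0.68 for Pfkp, -0.57 for Gys1 and -0.56 for Phkb. Over all genes the median of this difference was -0.48 and 20.7% of genes were called lower. The 5 negative differences were not called with median-ratio rescaling, and that of Hk2 was -0.37 by read share and -0.62 for its most abundant transcript alone. Fibroblast and macrophage markers were lower with prednisone after MI, and 3′-end transcripts were higher; their part in these differences was not tested.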

How the results depend on the processing

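The count of called members depended on the setting. Shares of all genes or transcripts called are given above for the first-named count of each contrast, and for median-ratio rescaling of genes. For the other settings counted below, left-out libraries among them, they are not given. Those counts cannot be set against a background. For MI against sham under vehicle it was 6, and 3 with no filter, 2 with the length correction and replicate block, 0 in a fit to only the 2 groups compared and 3 without mitochondrial rows. For MI against sham under prednisone it was 9, and 5 with no filter, 3 with the length correction, 2 with that correction and the block, and 5 without mitochondrial rows. For prednisone after MI it was 9, and 4 with the length correction, with and without the block, and 1 in a fit to the 2 groups. For the difference between prednisone effects it was 6, and 2 with median-ratio rescaling, 3 with no filter, 1 with the length correction, 0 with that and the block, and 2 without mitochondrial rows. Leaving out 1 library gave 1 (without sham vehicle mouse 3) to 12 (without MI vehicle mouse 1), 2 (without MI prednisone mouse 1) to 12 (without MI vehicle mouse 3), 6 to 11, and 1 to 8 members in these 4 contrasts, and 0 in sham hearts. Called member transcripts under vehicle numbered 4, and 2 with median-ratio rescaling, 0 with no filter and 1 with the block; for the difference between effects they numbered 35, and 20 with no filter.

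Some signs turned. The most abundant transcript alone and read share gave -0.91 and -0.65 for Hk2 in MI against sham under prednisone, -0.47 and -0.22 for Hk2 and -0.699 and -0.061 for Pygm with prednisone after MI, and -0.62 and -0.37 for Hk2 in the difference. Gpi1, not called on the TPM scale in these, was at -0.009 with prednisone after MI and -0.21 in the difference by read share, against 0.26 and 0.09. The length correction, with and without the replicate block, gave 0.047 for Pygb, 0.01 for Phkb, 0.17 for Phka1 and 0.024 for Pfkp with prednisone after MI, and 0.10 for Gys1 and 0.003 for Phkb in the difference. Read share gave -0.53 for Hk2 over Hk1 and 0.14 for Pygb over Pygm with surgery.

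Replicate numbers are shared between groups but belong to different mice, and same-numbered mice did not deviate together (mean correlation -0.37 to 0.003 by contrast). With the replicate block the called members numbered 4, 7, 7, 0 and 5 for MI against sham under vehicle and under prednisone, prednisone after MI, prednisone in sham hearts, and the difference. Pairing by number left 6 pairs (smallest p 0.03125), and no ratio passed after adjustment over 18 tests. With that floor a ratio could pass only if most of the 18 tests reached it too, so this setting cannot decide. The differences were Pfkp over Pfkm 1.07, Slc16a3 over Slc16a1 0.96, Eno1 over Eno3 0.90, Pkm M2 over M1 0.76, Pgam1 over Pgam2 0.56, Pfkl over Pfkm 0.49 and Ldha over Ldhb 0.32 for surgery, and Pygb over Pygm -0.64 for prednisone. Leaving out 1 library, surgery ratios ran from -0.013 to 0.206 for Hk2 over Hk1, 0.39 to 0.58 for Pfkl over Pfkm, 0.41 to 0.67 for Pgam1 over Pgam2, 0.24 to 0.40 for Ldha over Ldhb and 0.66 to 0.85 for Pkm, and prednisone ratios from -0.03 to 0.16 for Pfkl over Pfkm and -0.235 to 0.023 for Pgam1 over Pgam2. The causes of these changes were not tested.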
